A study of Mus musculus with 44 samples.

Results

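A set of 10 immediate early genes was read in RNA of mouse dorsal cortex and hippocampus, in total RNA and in RNA bound to tagged ribosomes of microglia. The 10 genes are Fos, Fosb, Jun, Junb, Egr1, Egr2, Arc, Nr4a1, Ier2 and Dusp1, taken by symbol through GENCODE M21 from the 50714 gene identifiers that all 44 count files share. All mice carried 1 CX3CR1-CreERT2 allele, a Cre recombinase that tamoxifen activates under a promoter used by microglia and by other macrophages, and a floxed RPL10a-GFP allele, a ribosomal protein fused to a green fluorescent tag. The sample labels give both alleles as (+/-), while the series text gives (fl/fl) for the tagged one. Tamoxifen mice (replicates D to K) received 100 mg/kg on postnatal days 15, 17 and 19. Control mice (replicates A to C) carried the same alleles and received vehicle per the sample labels, whereas the series text calls them untreated. Tissue was taken at postnatal day 28 to 29. Each replicate letter had 4 libraries. Input was RNA of the homogenate, and MG_TRAP was RNA pulled down from it through the tag (translating ribosome affinity purification, TRAP). SN_input was RNA of a synaptosome preparation, and PeMP_TRAP the tag pulldown from that preparation, named SN_TRAP in replicates G to K. By the style of their titles the 44 libraries divide in a first set (24, letters A to F) and a second (20, letters G to K), and every control library is in the first. Nothing in the labels says that replicates came from separate animals, so p-values here measure the spread between libraries.

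Immediate early genes are transcribed within minutes of a stimulus without new protein synthesis, through transcription factors that are already present, such as CREB at cAMP response elements and serum response factor at CArG boxes. Their mRNAs are short-lived. In cortex and hippocampus they are best known as marks of recent neuronal firing, and glia and macrophages also induce them, among other conditions when tissue is handled. Fos, Fosb, Jun and Junb encode subunits of the AP-1 transcription factor. Egr1 and Egr2 encode zinc finger transcription factors, and Nr4a1 encodes an orphan nuclear receptor. Arc encodes a postsynaptic protein whose mRNA travels into dendrites. Ier2 encodes a small nuclear protein, and Dusp1 encodes a phosphatase that switches off MAP kinases.

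Promoter sequence was at hand for 7 of the 10 genes (RefSeq, GRCm38.p6). The 4 shown are of genes whose values the results below turn on, with the 250 bases before the start site on the gene's strand. Capitals mark the cAMP response element TGACGTCA, its core TGACG, printed as CGTCA where it lies on the other strand, and the CArG box, each searched on both strands.
Fos, chr12:85473640-85473889, plus strand: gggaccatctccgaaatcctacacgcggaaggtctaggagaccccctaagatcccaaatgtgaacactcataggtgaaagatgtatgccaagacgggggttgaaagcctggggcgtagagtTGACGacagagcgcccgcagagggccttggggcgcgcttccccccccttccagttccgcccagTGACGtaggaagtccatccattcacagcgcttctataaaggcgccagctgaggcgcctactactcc
Egr2, chr10:67537619-67537868, plus strand: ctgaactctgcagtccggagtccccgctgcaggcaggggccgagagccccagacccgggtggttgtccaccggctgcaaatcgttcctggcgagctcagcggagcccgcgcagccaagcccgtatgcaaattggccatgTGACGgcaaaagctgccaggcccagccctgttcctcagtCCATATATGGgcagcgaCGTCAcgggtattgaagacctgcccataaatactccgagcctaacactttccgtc
Nr4a1, chr15:101266596-101266845, plus strand: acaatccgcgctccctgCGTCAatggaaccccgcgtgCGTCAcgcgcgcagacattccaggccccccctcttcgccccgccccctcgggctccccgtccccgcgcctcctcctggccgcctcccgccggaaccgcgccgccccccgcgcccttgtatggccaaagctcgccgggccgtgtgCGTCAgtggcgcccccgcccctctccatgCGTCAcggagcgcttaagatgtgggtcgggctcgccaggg
Dusp1, chr17:26508473-26508722, minus strand: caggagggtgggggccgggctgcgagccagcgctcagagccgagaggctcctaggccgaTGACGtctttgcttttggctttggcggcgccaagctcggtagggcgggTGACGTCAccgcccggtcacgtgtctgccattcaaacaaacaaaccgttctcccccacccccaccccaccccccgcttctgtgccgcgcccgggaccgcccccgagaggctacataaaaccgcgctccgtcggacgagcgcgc
Among these 4 windows the full element TGACGTCA occurred in that of Dusp1, where the core on each strand overlaps it, and 1.55% of 32851 promoter windows of this length hold it. The core occurred at 4 positions for Nr4a1, at 2 each for Fos and Egr2 and at 1 more for Dusp1, outside the full element, and 17.8% of windows hold at least 1. The CArG box occurred in the Egr2 window shown, against 1.47% of all windows. The RefSeq promoters hold 5 start sites for Egr2, some with overlapping windows. Of the 5 windows, 4 hold the CArG box and 3 the core, while that starting at 67535249 holds neither. These are matches of letters and were not read as binding.

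In GENCODE M21 (GRCm38) Arc lies on chromosome 15 from 74669083 to 74672570 and Fos on chromosome 12 from 85473890 to 85477273. Dusp1 lies on chromosome 17 from 26505590 to 26562128 and overlaps Ergic1 and 3 other gene models. Jun overlaps Junos, and Junb overlaps Prdx2. Whether reads were counted by strand is not given in the sources used here, so the values of these 3 genes could hold reads of their overlapping neighbours. Counts were per gene, so exons, introns and untranslated regions cannot be told apart.

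Assigned reads ranged from 746616 to 35584637 per library, and all 10 genes passed the filter on low counts in the fits of 15710, 14771 and 17961 genes. Levels below are CPM, counts divided by library size after scaling with TMM factors. A count of 0 still allows 3 counts, which stood between 0.0792 and 4.89 CPM, and this floor covers counting error only. The microglial label held in the TRAP libraries of tamoxifen mice: 15 microglial markers summed to 13673 to 47409 CPM in MG_TRAP, against 191 to 317 CPM in their Input. In PeMP_TRAP of these mice they summed to 19156 to 190353 CPM, against 2001 to 7466 CPM in SN_input. Neuronal RNA was present in tamoxifen MG_TRAP too, with 10 neuronal markers at 1585 to 5677 CPM against 9785 to 15021 CPM in Input. In control MG_TRAP the microglial markers summed to 2659 to 5637 CPM and the neuronal ones to 6658 to 8934 CPM. In control Input these sums were 361 to 395 and 11528 to 16776 CPM, so control pulldowns also held more microglial RNA than their Input. The PeMP_TRAP libraries of the second set stood apart, with 5372 to 7369 genes detected at 20442643 to 35584637 assigned reads, against 9415 to 13096 genes in the PeMP_TRAP libraries of the first set.

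In total RNA of tamoxifen mice Egr1 and Arc led the group per length. The median level over 8 Input libraries was 47.0 CPM per kilobase of exon for Egr1 and 43.1 for Arc. Nr4a1, Junb and Fos followed at 24.8, 23.9 and 21.5 CPM per kilobase. Ier2, Dusp1 and Jun lay at 11.05, 9.68 and 8.75 CPM per kilobase, and Egr2 and Fosb at 2.09 and 0.784. The ranges over libraries of neighbours in this order overlapped, with 1 exception: all 8 libraries had more Jun than any had Egr2 per kilobase. In microglial TRAP the order was another. Junb, Arc and Jun led at medians of 30.0, 29.0 and 23.4 CPM per kilobase over 8 tamoxifen MG_TRAP libraries, with Nr4a1 at 11.99 and Egr1 at 9.04. In SN_input Arc led at 32.6 CPM per kilobase, followed by Egr1 at 11.9 and Jun at 9.31. In PeMP_TRAP the medians of Fos, Fosb, Egr2, Ier2 and Dusp1 were 0.

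**Figure D1:**
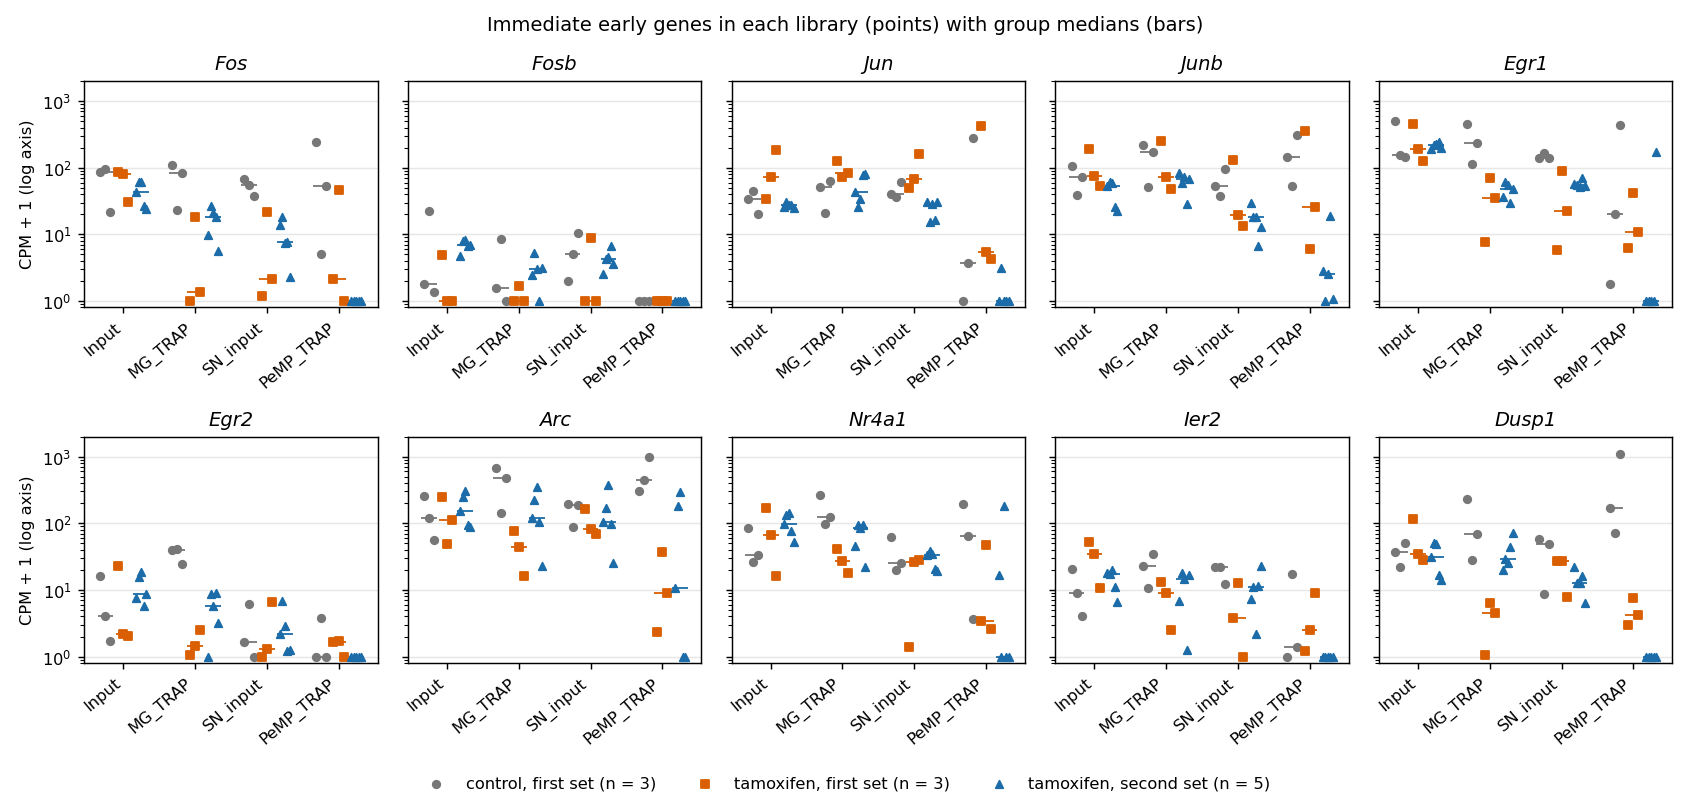
Level of each gene in each of the 44 libraries, as CPM + 1 on a log axis, by fraction. Points are libraries of control mice (n = 3), tamoxifen mice of the first set (n = 3) and tamoxifen mice of the second set (n = 5), and bars are group medians; in PeMP_TRAP the second-set points of Fos, Fosb, Egr2, Ier2 and Dusp1 all lie at 0 CPM.

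Total RNA of the second set varied between libraries in 7 of the 10 genes more than in almost all others of like level. Arc stood at 153, 251, 301, 92.3 and 85.5 CPM in Input of replicates G, H, I, J and K. Dusp1 stood at 30.4, 48.9, 48.5, 16.03 and 13.1 CPM in the same order, and Fos at 41.6, 59.4, 59.7, 25.7 and 23.2 CPM. Replicates H and I were high and J and K low for all 3 genes. Nr4a1 repeated this order with 98.0, 130.3, 143, 76.1 and 52.2 CPM. Egr1 did not vary in this way: its Input values were 189, 222, 225, 241 and 200.1 CPM. The SD of log2 CPM was 0.88 for Dusp1, 0.82 for Arc, 0.80 for Egr2 and 0.14 for Egr1 (n = 5 libraries each).

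For 7 of the 10 genes (Fos, Junb, Egr2, Arc, Nr4a1, Ier2 and Dusp1) this SD lay between 0.59 and 0.88 and was larger than that of 99.8% to 99.96% of the genes within 1 log2 unit of their level. Genes of like level had a median SD of 0.09 to 0.25. Jun and Egr1 exceeded 26.8% and 84.9% of genes of like level, and Fosb exceeded 83.4%. Replicate K was lowest for 7 of the 10 genes, and J and K were each among the lowest 2 for 8. Replicate I was highest for 6 genes and H for 3. The libraries of this group held 13629005 to 19931477 assigned reads and 20949 to 22449 detected genes, with J and K at the lower end of both. The part of depth in the order was not tested, and how many of all genes share that order was not counted.

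**Figure D2:**
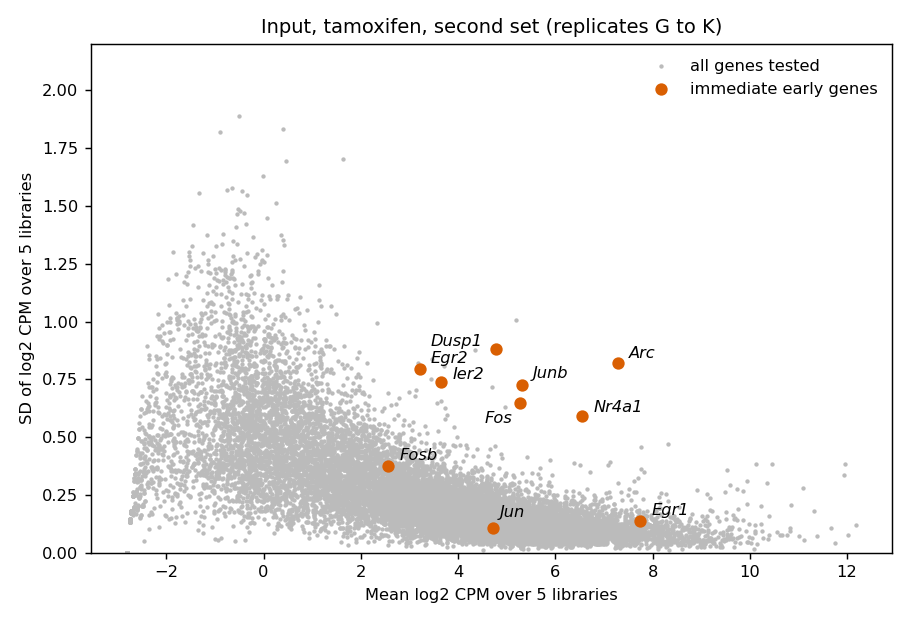
Mean and SD of log2 CPM of every tested gene over the 5 Input libraries of the second set (grey), with the 10 immediate early genes in orange. A group of 7 lies above nearly all genes of their level, with SDs from 0.59 to 0.88, while Jun, Egr1 and Fosb lie within the cloud.

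Arc kept its order of libraries in 3 fractions. In MG_TRAP of the second set it stood at 121, 224, 349, 102 and 22.0 CPM in G to K. In SN_input it stood at 104, 168, 372, 95.3 and 24.5 CPM. Replicate I was highest and K lowest in both, as in Input, and K, J, G, H, I was the rising order each time. Of 15710 genes tested, 118 (0.751%) held any 1 order in these 3 fractions, and Arc was the only gene with this order; Arc was singled out after its values were seen. The other 9 members did not repeat their Input order in both fractions. Arc's SD in MG_TRAP and SN_input (1.51 and 1.43 on the log2 scale) exceeded that of 99.6% and 99.95% of genes of like level. Letters are shared labels of the fractions, and whether a letter stands for 1 animal is not stated.

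**Figure D3:**
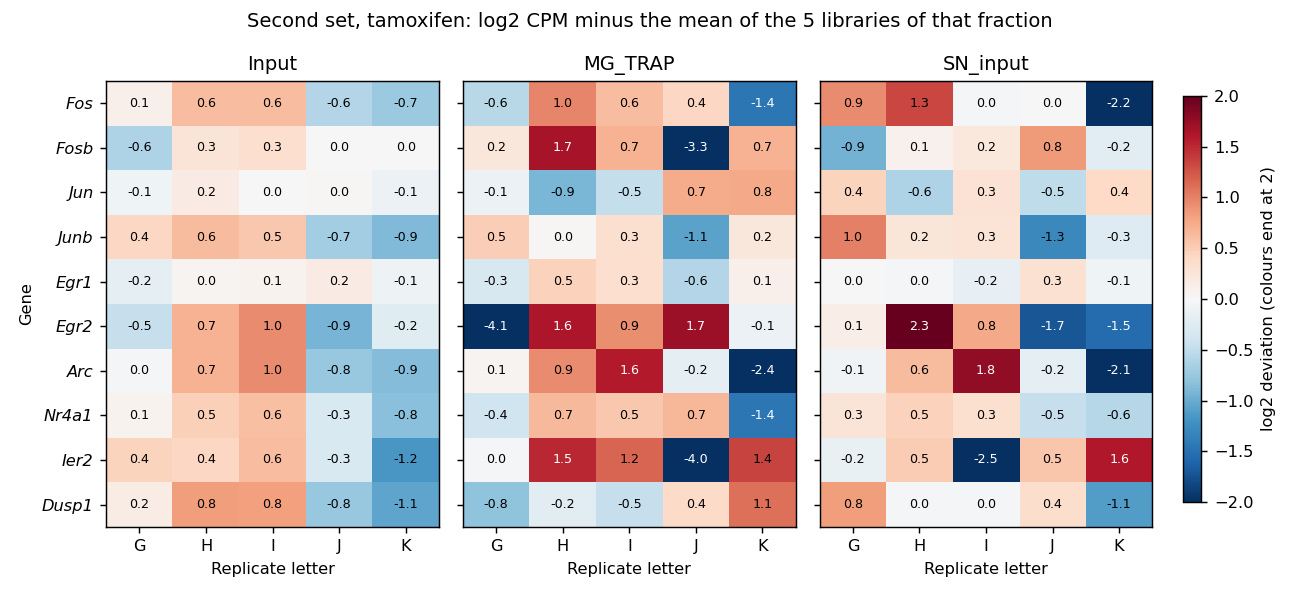
Log2 CPM of each gene in each second-set tamoxifen library minus the mean of the 5 libraries of that fraction, for Input, MG_TRAP and SN_input. Arc shows the same rising order K, J, G, H, I in each panel, and in Input most genes are low in J and K.

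In Input of the first set's tamoxifen mice replicate D was highest for 9 of the 10 genes among D, E and F. That library held 17330989 assigned reads, against 4601105 and 3288305 in E and F. The part of depth was not tested, and how many of all genes were highest in D was not counted. Junb stood there at 188 CPM in D against 73.3 and 51.9 CPM in E and F. Egr1 stood at 459 CPM in D against 188 and 124 CPM. In MG_TRAP the same letter was lowest for 5 genes and highest for 5. Dusp1 stood at 1 count (0.0713 CPM) and Fos at 0 counts in MG_TRAP of D, while Jun and Junb reached 124 and 248.6 CPM there.

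Microglial TRAP was compared with Input to ask which of these RNAs the tagged ribosomes of tamoxifen mice held more or less of than whole tissue did. None of the 10 genes passed the test at an adjusted p of 0.05, where 6.82% of 15710 genes did (edgeR quasi-likelihood test, 8 libraries against 8). At an unadjusted p under 0.05 there was 1 member, beside 16% of all genes. Egr1 was the 1 member whose groups did not overlap, lower in MG_TRAP, against 3.6% of all genes. It ran from 6.70 through a median of 40.5 to 69.9 CPM in MG_TRAP, and from 124 through 211 to 459 CPM in Input. All 8 MG_TRAP libraries thus lay under all 8 Input libraries. The estimated difference was -2.45 on the log2 scale (SE 1.11, edgeR adjusted p = 0.243). This call changed between settings: with the 8 PeMP_TRAP libraries left out, an alternative chosen after seeing the data, the estimate was -2.31 (edgeR adjusted p = 0.000147), and over 12 settings its adjusted p ran from 1.52e-05 to 0.789, with 6 under the threshold.

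None of the AP-1 subunits was called in the same comparison, and their values overlapped. Fos ran from 0 through a median of 13.1 to 25.8 CPM in MG_TRAP and from 23.2 through 50.5 to 85.1 CPM in Input (log2 difference -1.72, SE 1.37). Jun ran from 24.5 through 74.7 to 124 CPM in MG_TRAP and from 24.1 through 27.9 to 184 CPM in Input (0.85, SE 1.09). Fos was lower in MG_TRAP under 8 of 8 letters and Jun under 3, and the test called neither. Junb had an estimate of 0.49 (SE 0.91), which was negative with another scaling (RLE, -0.03), and Fosb one of -1.73 (SE 1.24). With the second set's MG_TRAP and Input libraries alone, an alternative chosen after seeing the data, Jun was called higher in MG_TRAP (1.02, SE 0.30, edgeR adjusted p = 0.0285), where 24.1% of genes were called. In the second set Jun averaged 51.1 ± 25.1 CPM in MG_TRAP and 26.1 ± 2.01 CPM in Input, and Egr1 44.9 ± 12.9 and 215 ± 20.5 CPM (SD, n = 5 each). In the first set Dusp1 averaged 2.96 ± 2.67 CPM in MG_TRAP and 58.6 ± 48.5 CPM in Input (SD, n = 3 each), whereas in the second set it averaged 37.1 ± 21.1 and 31.4 ± 17.1 CPM. Its difference between sets was not called (edgeR adjusted p = 0.701) in a fit where 0% of genes were. It was called by DESeq2 (5.09, adjusted p = 0.00375, with 1.76% of genes called) and by limma voom (5.76, adjusted p = 0.0275, with 1.03%). The median over the 10 genes was -0.81, beside -0.14 over all genes tested. In bulk RNA, fewer cells of a type and less RNA per cell cannot be told apart.

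The synaptosome preparation was compared with the homogenate to ask which RNAs it retained. The estimates were negative for 9 of the 10 genes, beside a median of -0.02 over all genes. That of Fosb (0.01) turned negative with each of 3 other scalings. These moved the median of all genes by -0.70 (RLE), -1.05 (total counts) and -0.04 (TMMwsp). None of the 10 genes passed the test at 8 libraries against 8, where 2.55% of genes did (edgeR, 0 members at an unadjusted p under 0.05, beside 11.2% of genes). Fos ran from 0.190 through a median of 6.57 to 20.4 CPM in SN_input, under all Input libraries (23.2 to 85.1 CPM). Egr1 ran from 4.74 through 53.4 to 87.9 CPM in SN_input, again under all Input libraries (124 to 459 CPM). These were the 2 members whose groups did not overlap, and 2.11% of all genes were lower in that way. The log2 estimates were -2.37 for Fos (SE 1.39, adjusted p = 0.6) and -2.22 for Egr1 (SE 1.10, adjusted p = 0.445). Nr4a1 and Egr2 had estimates of -1.96 (SE 1.10) and -2.29 (SE 1.27), and Arc, whose mRNA is known to enter dendrites, of -0.26 (SE 0.93).

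The second set showed this contrast more narrowly. Egr1 averaged 56.3 ± 7.58 CPM in SN_input and 215 ± 20.5 CPM in Input, Fos 8.92 ± 6.19 and 41.9 ± 17.6 CPM, and Nr4a1 28.1 ± 8.74 and 99.9 ± 37.5 CPM (SD, n = 5 each). Arc averaged 153 ± 133 and 177 ± 96.2 CPM, and Jun 23.2 ± 7.72 and 26.1 ± 2.01 CPM. The first 3 genes did not overlap between the 2 fractions in this set, and 20.1% of all genes were lower without overlap there. When only the libraries compared entered the fit, 4 members were called lower (Fos, Egr1, Nr4a1 and Dusp1), in a fit that called 19% of 14620 genes. Over 12 settings the adjusted p of Egr1 ran from 5.17e-09 to 0.942 and that of Fos from 0.00134 to 0.952, each with 3 under the threshold. Nuclear retained RNAs moved with this contrast: 6 such RNAs summed to 1313 to 29069 CPM in Input and to 78.1 to 2664 CPM in SN_input of tamoxifen mice, and 3 of the 6 were called lower. Their part in the result was not tested.

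In the second set's pulldown from synaptosomes most of these RNAs were near or at the limit of detection, and which ones were seen changed from library to library. Of the 10 genes, 1 to 3 had a read in each PeMP_TRAP library of that set. Fos, Fosb, Egr2, Ier2 and Dusp1 had 0 reads in all 5 of them. Egr1 stood at 169.5 CPM (4136 counts) in K and 0 in G to J. Nr4a1 stood at 15.9 CPM in G, 183 CPM in I and 0 in H, J and K. Arc stood at 9.54, 179.8 and 294 CPM in G, H and I and at 0 in J and K. Arc thus ran from 0 to 8007 counts within 1 group of 5 deep libraries.

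In the first set 7 to 9 of the 10 genes had a read in a tamoxifen PeMP_TRAP library and 6 to 9 in a control one, against 8 to 10 in each library of the other 3 fractions of both sets. Jun stood at 424, 4.39 and 3.26 CPM in D, E and F, and Junb at 351, 5.12 and 24.4 CPM. Fos stood at 1.12, 45.3 and 0 CPM in the same order. Replicate D was thus high for Jun and Junb and E for Fos. The counts behind the low values were few: 6 and 2 reads for Jun in E and F, and 5 reads for Fos in D. The neuronal markers Gad1 and Gad2 were also at 0 in all second-set PeMP_TRAP libraries, while the 10 neuronal markers together summed to 1904 to 5055 CPM there.

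**Figure D4:**
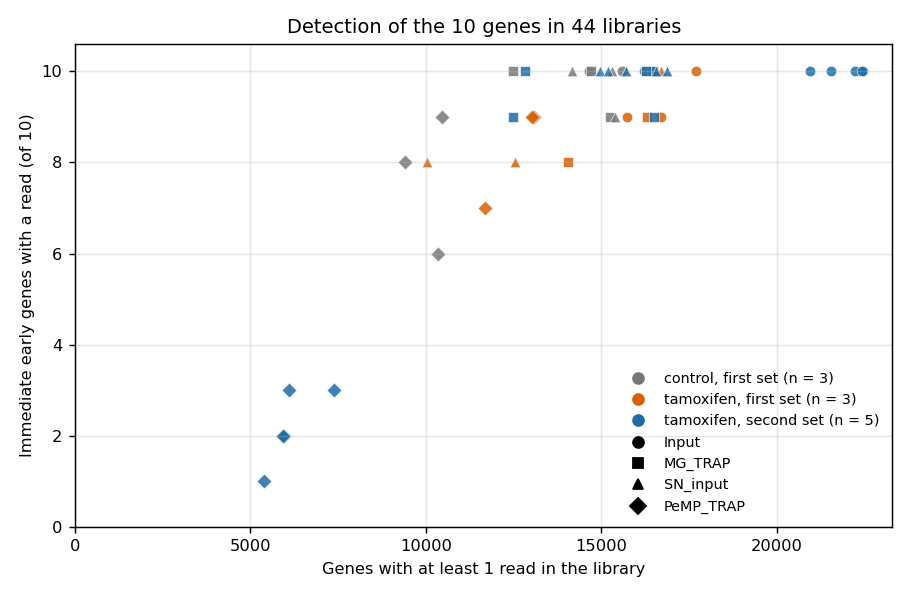
Number of the 10 genes with at least 1 read against the number of all genes with a read, for each of the 44 libraries, by fraction (marker shape) and group (colour). The 5 second-set PeMP_TRAP libraries stand alone at 5372 to 7369 genes and 1 to 3 of the 10, although they hold 20442643 to 35584637 assigned reads.

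PeMP_TRAP was tested against SN_input to ask which RNAs the tagged ribosomes of that preparation held. A total of 4 members were called lower in PeMP_TRAP and none higher (Fosb, Egr2, Ier2 and Dusp1), in a comparison that called 32.3% of all genes and 26.1% lower, so their share was near that of all genes (edgeR, 8 libraries against 8). Fosb had 0 reads in all 8 PeMP_TRAP libraries against 0 to 7.96 CPM in SN_input (edgeR adjusted p = 0.000514). Egr2 had at most 3 reads in a PeMP_TRAP library, against 0 to 5.83 CPM in SN_input (edgeR adjusted p = 0.0412). No fold is given for these 2 genes, because the floor of the shallowest PeMP_TRAP library lay above the mean of SN_input. Dusp1 stood at 2.02, 6.58 and 3.26 CPM in D to F and at 0 in G to K, against 5.40 to 26.5 CPM in SN_input (log2 estimate -4.55, SE 1.46, edgeR adjusted p = 0.015). Ier2 stood at 0 to 8.14 CPM in PeMP_TRAP against 0 to 22.0 CPM in SN_input (-4.46, SE 1.66, edgeR adjusted p = 0.035).

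Against MG_TRAP the same 4 genes were called lower, and none higher, where 25.2% of all genes were called and 22% lower. All 10 estimates were negative, with a median of -2.34, or -1.42 with Fosb and Egr2 set at no difference, beside -0.57 over all genes. These 2 genes had no bound, since the floor of the shallowest PeMP_TRAP library lay above their mean in MG_TRAP. Dusp1 (-5.69, SE 1.65, edgeR adjusted p = 0.0093) and Ier2 (-4.57, SE 1.63, edgeR adjusted p = 0.0346) stood against MG_TRAP values of 0.0713 to 71.2 CPM and 0.238 to 17.2 CPM. Both contrasts share the PeMP_TRAP libraries, so they are not 2 separate observations. Fosb passed also for the difference between the 2 pulldowns' enrichments (edgeR adjusted p = 0.012), where 11.3% of all genes did. With limma voom its calls there (adjusted p = 0.364) and against MG_TRAP (0.0757) were lost. A replicate block also ended its call for the difference of enrichments (edgeR adjusted p = 0.0688). For that difference Jun was called too without D (0.00395), Ier2 without F (0.0136) and Dusp1 without E (0.0401). Arc was called by edgeR in neither contrast, at -1.32 (SE 0.96) against SN_input and -0.91 (SE 0.94) against MG_TRAP. By limma voom it was called lower against SN_input (-4.60, adjusted p = 0.00422, with 50.9% of genes called). Against MG_TRAP limma voom also called it lower (-4.29, adjusted p = 0.00518, with 46.1%).

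Fosb and Dusp1 kept both calls whichever replicate was left out (highest adjusted p 0.00269 and 0.0464 against SN_input, 0.013 and 0.0489 against MG_TRAP). Egr2 lost its call against SN_input without F, G, H, I, J or K (adjusted p up to 0.128) and against MG_TRAP without G, H, I, J or K (up to 0.107). Ier2 lost both calls without G, H, I, J or K (up to 0.112). With only the compared libraries in the fit, Dusp1 lost its call against MG_TRAP (adjusted p = 0.0958, estimate -9.55), Ier2 lost both (0.0565 and 0.0668) and Egr2 lost that against MG_TRAP (0.0829). In the other direction, Fos was called lower without E (adjusted p = 0.0113 against SN_input and 0.00671 against MG_TRAP), Jun without D (0.000485 and 0.000286), Junb without D against MG_TRAP (0.0115) and Egr1 without K against SN_input (0.0499). Each of those letters was the 1 PeMP_TRAP library with the highest level of that gene. With the first set alone no member was called in either contrast, where 2.87% and 0% of genes were. Dusp1 then turned to an estimate of 0.46 against MG_TRAP (edgeR adjusted p = 0.939).

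The sets differed in these contrasts. The difference of PeMP_TRAP minus SN_input was lower in the second set than in the first for Fos, Jun, Ier2 and Dusp1 (edgeR adjusted p of the difference 0.00335, 0.0369, 0.00325 and 0.00144), where 15.1% of 17961 genes differed. PeMP_TRAP minus MG_TRAP was lower in the second set for Fos, Jun, Egr2, Ier2 and Dusp1 (0.00198, 0.0159, 0.0133, 0.00397 and 0.000152), where 15.3% of genes differed. In the first set the mean of Fos was higher in PeMP_TRAP (15.5 ± 25.9 CPM) than in SN_input (7.23 ± 11.4) or MG_TRAP (5.93 ± 9.95), as was that of Jun (144 ± 243 against 92.2 ± 61.2 and 92.6 ± 27.9 CPM, SD, n = 3 each). These first-set values overlapped between fractions, and 1 PeMP_TRAP library carried each mean. The PeMP_TRAP mean was 0.561 CPM for Fos without E and 3.82 CPM for Jun without D. Median levels of Jun were 1.38 CPM per kilobase in PeMP_TRAP, 20.8 in SN_input and 25.5 in MG_TRAP. Those of Fos were 0.477, 0.479 and 0.164 CPM per kilobase in the same order. The difference for Jun was lost against SN_input with RLE scaling (edgeR adjusted p = 0.0898) and without D, E, F, G, I, J or K, and against MG_TRAP without D, E or F (adjusted p = 0.708, 0.074 and 0.0651). Egr2 lost its difference without E (0.0729), Egr1 gained both without K (8.99e-05 and 0.000106), Junb gained both without J (0.0353 and 0.0148), and Egr2 gained that against SN_input without F (0.0311). Set, depth and the number of genes detected moved together here, and their parts in the result were not tested.

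Control mice carried the tagged allele without tamoxifen, and their pulldowns give what came down without it. There 9 of the 10 genes had positive estimates for MG_TRAP against Input, with a median of 1.16 beside 0 over all genes, and none was called, as 0.0135% of all genes were (edgeR, 3 libraries against 3, 0 members at an unadjusted p under 0.05, beside 7.45% of genes). Egr2 stood at 39.1, 40.6 and 23.3 CPM in MG_TRAP of A, B and C and at 15.2, 3.03 and 0.709 CPM in Input. Nr4a1 stood at 268, 96.8 and 122 CPM in MG_TRAP and at 82.8, 24.9 and 33.0 CPM in Input. Both genes were higher in MG_TRAP without overlap, as 5.84% of all genes were. The estimates were 2.48 (SE 2.19) and 1.88 (SE 1.395) on the log2 scale, and neither was called.

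Arc and Dusp1 were the 2 members higher in control PeMP_TRAP than in SN_input without overlap. Arc stood at 299.9, 442 and 995 CPM in A, B and C against 194, 88.4 and 185 CPM in SN_input. Dusp1 stood at 168, 70.7 and 1110.1 CPM against 56.6, 7.64 and 47.1 CPM. Such a gap was seen in 1.44% of all genes. The estimates were 1.96 (SE 1.03, edgeR adjusted p = 0.301) and 3.60 (SE 1.31, edgeR adjusted p = 0.201), and 0% of genes were called (1 member at an unadjusted p under 0.05, beside 17.4% of genes). Fosb was the 1 member lower without overlap, as 18.6% of all genes were, with 0 reads in each PeMP_TRAP library (a floor of up to 4.16 CPM) against 1.01 to 9.60 CPM in SN_input. Against control MG_TRAP, Egr2 was at least 8.26-fold lower in PeMP_TRAP by the floor of the shallowest library, with 0, 2 and 0 reads in A, B and C, and was not called (edgeR adjusted p = 0.221), as 0.0406% of genes were (1 member at an unadjusted p under 0.05, beside 20.8% of genes). No member was called between SN_input and Input of control mice, where 0% of genes were (0 members at an unadjusted p under 0.05, beside 6.84% of genes).

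Tamoxifen was compared with control within the first set to ask what the tag's induction added to each fraction. In Input the 10 genes overlapped between treatments, and none was called, as 0% of all genes were (edgeR, 3 libraries against 3, 0 members at an unadjusted p under 0.05, beside 3.06% of genes). Fos stood at 86.7, 95.2 and 20.4 CPM in control Input and at 85.1, 79.9 and 29.2 CPM in tamoxifen Input. Arc averaged 143 ± 104 and 136 ± 104 CPM, and Egr1 264 ± 202 and 257 ± 178 CPM (SD, n = 3 each). Ier2 and Jun had tamoxifen means of 31.3 ± 20.9 and 96.7 ± 78.3 CPM and control means of 10.1 ± 8.31 and 31.97 ± 11.9 CPM, within overlapping ranges. For Fos the estimate was 0.00 (SE 1.60), which leaves a change of several fold in either direction undetected at this number of libraries.

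In MG_TRAP 6 of the 10 genes were lower in every tamoxifen library than in any control library (Fos, Egr1, Egr2, Arc, Nr4a1 and Dusp1), as 13.3% of all genes were. Fos stood at 108, 22.3 and 83.6 CPM in control MG_TRAP and at 0, 17.4 and 0.385 CPM in tamoxifen MG_TRAP. Egr2 stood at 39.1, 40.6 and 23.3 CPM against 0.0713, 0.464 and 1.54 CPM (1, 2 and 4 reads). Arc stood at 671, 142 and 483 CPM against 75.8, 43.7 and 15.02 CPM. The 3 genes were thus separated by ranges with a gap between them. Dusp1 stood at 227, 27.4 and 68.8 CPM against 0.0713, 5.34 and 3.47 CPM, and its mean was 36.4-fold lower with tamoxifen. Without replicate A, which held 70.2% of its summed control CPM, that gap was 16.3-fold, and over all leave-outs it ran up to 60.9-fold (without E). The mean of Egr2 was 49.6-fold lower, or 34.2-fold (without D) to 128-fold (without F) over the leave-outs. Without F only the 1 and 2 reads of D and E remain, within the floor of 3 counts, so 128-fold is not a measured size. Egr1 stood at 452, 114 and 233 CPM against 6.70, 69.9 and 33.9 CPM, and Nr4a1 at 268, 96.8 and 122 CPM against 39.7, 26.2 and 16.9 CPM. Jun went the other way, with 49.7, 20.3 and 61.8 CPM in control and 124, 72.2 and 81.2 CPM in tamoxifen MG_TRAP, and 15.3% of all genes were higher without overlap.

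None of these differences passed the edgeR test over 14771 genes, which called 0% of them in MG_TRAP. A total of 5 members had an unadjusted p under 0.05 (Dusp1, Arc, Egr1, Egr2 and Fos), as 15.9% of all genes did. The log2 estimates were -5.39 for Dusp1 (SE 1.44, adjusted p = 0.128), -3.52 for Arc (SE 1.10, adjusted p = 0.21) and -3.03 for Egr1 (SE 1.30, adjusted p = 0.258). The median over the 10 was -3.27, or -2.91 with Fosb at its bound, beside -0.14 over all genes. DESeq2 called Arc and Dusp1 lower, where 5.92% of all genes were called. Calls by limma voom were those 2 with Fos, Egr1 and Egr2, where 8.1% of all genes were called. Over 7 settings the adjusted p ran from 0.000474 to 0.151 for Dusp1 and from 0.0195 to 0.32 for Arc. Other cell types moved with this contrast: the 10 neuronal markers summed to 1585 to 2562 CPM in tamoxifen against 6658 to 8934 CPM in control MG_TRAP, astrocyte markers to 333 to 572 against 1312 to 4740 CPM, and microglial markers to 37683 to 47409 against 2659 to 5637 CPM. Their part in the result was not tested. The difference in enrichment over Input between treatments was called for no member (0% of genes, 2 members at an unadjusted p under 0.05, beside 9.19% of genes).

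**Figure D5:**
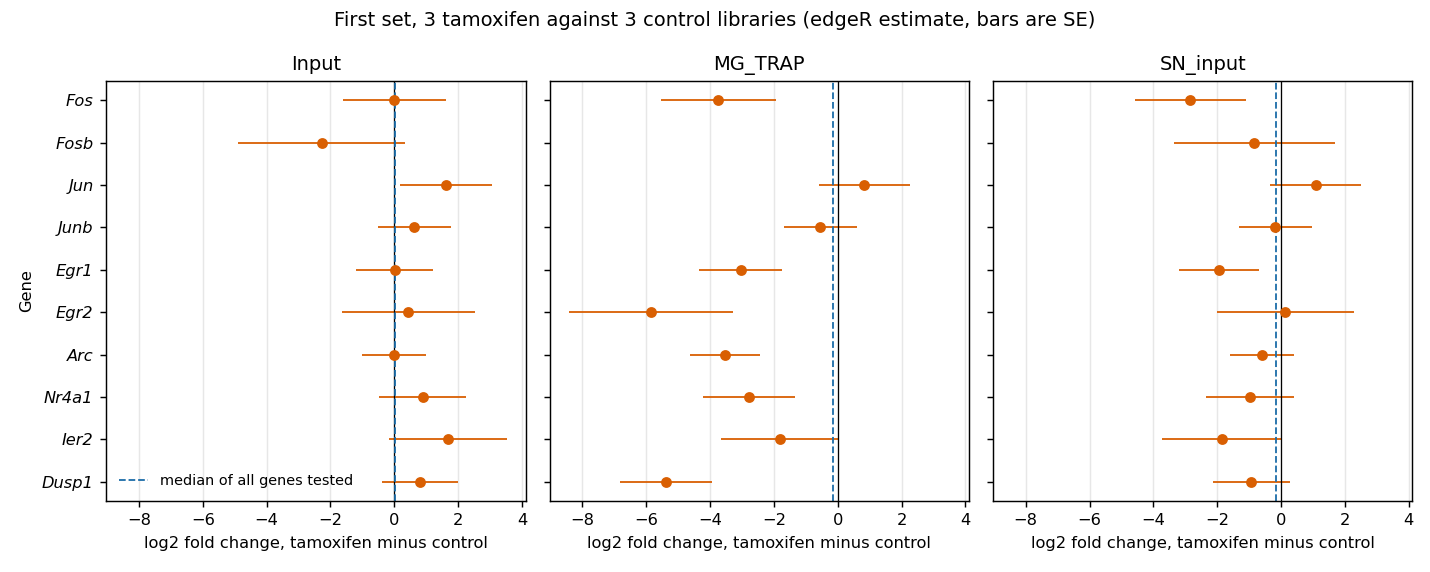
Log2 fold change of tamoxifen against control in Input, MG_TRAP and SN_input of the first set, as edgeR estimates with SE bars (3 libraries against 3), with a dashed line at the median of all genes tested. In MG_TRAP most of the 10 genes lie left of the line and Jun right of it, while in Input they lie on both sides. Fosb in MG_TRAP is not drawn, since all its tamoxifen libraries are at or under the floor.

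In SN_input Fos and Egr1 were lower without overlap, as 6.63% of all genes were, and 0% of genes were called (0 members at an unadjusted p under 0.05, beside 3.35% of genes). Fos stood at 66.2, 53.5 and 36.8 CPM in control and at 0.190, 20.4 and 1.13 CPM in tamoxifen SN_input. Egr1 stood at 139, 166 and 141 CPM against 4.74, 87.9 and 21.4 CPM. The estimates were -2.84 (SE 1.73) and -1.95 (SE 1.25), and neither was called. This fraction was not a pulldown, and its neuronal markers summed to 9090 to 15228 CPM in control and 10120 to 13372 CPM in tamoxifen libraries. Astrocyte markers summed to 5773 to 9906 and 9896 to 13606 CPM, and microglial markers to 2146 to 4149 and 2001 to 7466 CPM. The control libraries held 14174 to 15405 detected genes and the tamoxifen ones 10023 to 16702. The parts of cell types and of detection in the result were not tested.

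In PeMP_TRAP Arc and Dusp1 fell with tamoxifen, the 2 members called of 10, where 11.1% of genes were called and 5.56% lower. Arc stood at 299.9, 442 and 995 CPM in control and at 1.35, 36.6 and 8.14 CPM in tamoxifen PeMP_TRAP, a 37.7-fold gap between means (log2 estimate -5.31, SE 1.20, edgeR adjusted p = 0.00783). Dusp1 stood at 168, 70.7 and 1110.1 CPM against 2.02, 6.58 and 3.26 CPM, a 114-fold gap (-6.96, SE 1.56, edgeR adjusted p = 0.00773). All control libraries of both genes lay above all tamoxifen libraries, as in 4.27% of genes. Arc lost its call without F (adjusted p = 0.0546) and Dusp1 without C (0.0701), where its estimate moved from -6.96 to -4.91. Replicate C held 82.3% of the summed control CPM of Dusp1, and the gap between means without it was 30.2-fold. Replicate E held 79.4% of the summed tamoxifen CPM of Arc, and without it the gap was 122-fold. The floor of 3 counts stood at 0.673, 2.19 and 4.89 CPM in D, E and F. Dusp1 in F thus lay under its floor, and Arc in D and F not far above it, so these gaps rest on few reads. Over all leave-outs the gap of Arc ran from 24.2-fold to 122-fold and its estimate from -7.46 to -4.58. Both lost their call when only the PeMP_TRAP libraries entered the fit (0.138 and 0.0838), where 0.353% of 6518 genes were called. Fos was called lower without E (0.0375) and Jun higher without C (0.0414). For Egr1 the values were 0.813, 19.4 and 443 CPM in control and 5.16, 40.2 and 9.77 CPM in tamoxifen libraries, which overlap. The difference in enrichment over SN_input between treatments was not called for Arc (edgeR adjusted p = 0.0822) or Dusp1 (0.075), where 1.24% of genes were (2 members at an unadjusted p under 0.05, beside 19.8% of genes). Nuclear retained RNAs summed to 985 to 37788 CPM in control and 629 to 3998 CPM in tamoxifen PeMP_TRAP, and neuronal markers to 3457 to 15148 and 938 to 7317 CPM. Their parts in the result were not tested.

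The neighbours of these genes in the same pathways were read from 6 lists with 59 genes. In tamoxifen MG_TRAP against Input 1 of these genes was called, beside 6.82% of all genes: Rgs2, an activity-induced regulator of G protein signalling, rose by 2.92 (SE 0.44, edgeR adjusted p = 7.15e-06). None of the 5 AP-1 partners tested, 6 EGR and NR4A relatives with their corepressors, 4 MAP kinase phosphatases, 23 other early response genes and 11 upstream regulators was called there. Between SN_input and Input 0 genes of the 6 lists were called by edgeR, beside 2.55% of all genes.

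In PeMP_TRAP against SN_input, 5 of 9 neuronal activity genes were called lower and 1 higher, beside 26.1% and 6.15% of all genes. Npas4, an activity-dependent transcription factor of neurons, had 0 reads in all 8 PeMP_TRAP libraries against a median of 1.25 CPM in SN_input (edgeR adjusted p = 0.0003). Rgs2 rose by 2.32 (SE 0.43, edgeR adjusted p = 0.000151) from a median of 36.2 to 186 CPM. Of 23 other early response genes 5 were higher and 5 lower, and Myc, a growth-associated transcription factor, rose by 5.72 (SE 1.51, edgeR adjusted p = 0.00356). Mapk3, which encodes the kinase ERK1 upstream of many of these genes, rose by 1.23 (SE 0.45, edgeR adjusted p = 0.0308) and was the 1 upstream regulator of 11 called.

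Against MG_TRAP, 8 of the 23 other early response genes were lower in PeMP_TRAP and 0 higher, beside 22% and 3.17% of all genes. Dusp6, a phosphatase for ERK, fell by 3.98 (SE 0.98, edgeR adjusted p = 0.00305) from a median of 199 to 5.90 CPM, and Nab2, a corepressor of the EGR proteins, fell by 4.21 (SE 1.34, edgeR adjusted p = 0.0168). Jund, the AP-1 subunit that is made without induction, rose by 1.68 (SE 0.57, edgeR adjusted p = 0.0265). With tamoxifen against control in PeMP_TRAP, 5 of 9 neuronal activity genes were lower, beside 5.56% of all genes, and Rgs2 higher (3.89, SE 1.06, edgeR adjusted p = 0.0195). Nptx2, a secreted synaptic protein induced by activity, was among the lower ones, at medians of 0 and 83.1 CPM (edgeR adjusted p = 0.0288). Mef2a, a transcription factor upstream of activity-induced genes, rose by 4.02 (SE 1.16, edgeR adjusted p = 0.0247).

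Across the 32 tamoxifen libraries, with each set's mean subtracted, the likeness of each member's pattern to other genes was measured by Pearson's r of log2 CPM. The libraries come from 4 fractions, whose means were not subtracted. The part of fraction in any likeness was not tested, and the values are a description. The closest pair of members was Fos and Dusp1 (r = 0.85) and the least alike were Arc and Junb (r = 0.29). Among 7560 other genes, the nearest to Dusp1 was Prkar2b, a regulatory subunit of protein kinase A (r = 0.95). The nearest to Egr1 was Myh10, a nonmuscle myosin (r = 0.95), to Fos Syt17 (r = 0.94) and to Arc Srr, the enzyme that makes D-serine (r = 0.92). Jun and Junb were nearest to Dtx3 and Isca1 (r = 0.90 each), Nr4a1 to Nr1d2, a nuclear receptor of the circadian clock (r = 0.91), and Ier2, Fosb and Egr2 to Rgs14, Tmem25 and Kcnab1 (r = 0.88, 0.84 and 0.82).

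The authors' deposited table of the first set lists all 10 genes in 3 comparisons. In the authors' deposited table Dusp1 was the 1 member under an adjusted p of 0.05 in MG_TRAP against Input (log2 fold change -4.15, adjusted p = 0.0172), where 9.4% of its 13634 genes were under it and 2.44% also lower. Arc was the 1 member in PeMP_TRAP against SN_input in the authors' deposited table (-3.18, adjusted p = 0.0206), where 17.9% of genes were under it and 8.27% also lower. Between SN_input and Input 0 members and 1.38% of genes were under it in the authors' deposited table. Both genes were lower without overlap in those first-set comparisons of the counts, Dusp1 among 16% and Arc among 9.66% of all genes.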

How the data were processed

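Libraries of 4 fractions were made with SMART-Seq v4, per the labels' protocols. The authors deposited read counts per gene, made with HTSeq 0.9.1 after STAR 2.7.0d, Trimmomatic 0.38 and Bowtie2 2.3.5, per the submitters' processing notes, which give these tools without order. The genome build, the annotation and the strand setting are not given in the sources used here. The authors also deposited a table of log2 fold changes and adjusted p-values for the first set, from which 24 columns of per-sample values were not used. The 10 genes and the other lists were chosen with earlier results of these data known. Rows that name no gene held 0.0232% to 0.795% of a file's reads and were left out.

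Symbols, positions and exon lengths came from GENCODE M21. Counts were tested with edgeR 4.0.16 (quasi-likelihood, TMM scaling, low counts filtered with a minimum of 10) in R 4.3.3, with Benjamini-Hochberg adjustment over all genes tested and a threshold of 0.05. Tamoxifen fractions were compared over both sets with the set as a covariate, and control comparisons used the first set with all its groups in 1 fit. Log2 CPM used a prior count of 2, and spread was compared among genes within 1 log2 unit. The procedures were tested on simulated data. Alternatives were other scalings, no filter, DESeq2 1.42.0, limma 3.58.1 voom, fits on the compared groups or 1 set, a replicate block and leaving out each replicate. Fits without the PeMP_TRAP libraries, and of the second set's compared groups alone, were added after seeing the data. Genes named from the other lists were drawn from the 2 highest and 2 lowest log2 fold changes per list among those called, and the genes most like a member from the 3 with the highest r at an average log2 CPM of at least 4. No 2 libraries held identical values.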

Additional observations from a re-analysis of the deposited data

Results flagged for a closer look

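In 39 sets of 8 tamoxifen libraries (a gene in a fraction) with a range above 0, the highest or lowest library was far from the others in 4, where chance gives about 1 in 20. Fos in PeMP_TRAP of replicate E stood at 5.51 log2 CPM, far above the other 7 tamoxifen libraries, and Jun in PeMP_TRAP of replicate D stood at 8.73. Replicate D was far below the others for Egr1 in MG_TRAP (2.77 log2 CPM) and for Nr4a1 in SN_input (-0.94).

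The second set differed from the first in PeMP_TRAP against SN_input for 4 genes, with edgeR adjusted p-values of the difference of 0.00335 for Fos, 0.0369 for Jun, 0.00325 for Ier2 and 0.00144 for Dusp1. Against MG_TRAP it differed for 5 genes, with edgeR adjusted p-values of 0.00198 for Fos, 0.0159 for Jun, 0.0133 for Egr2, 0.00397 for Ier2 and 0.000152 for Dusp1. Each was lower in the second set.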

How the results depend on the processing

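Of 320 alternative values of called results, 268 kept direction and call, 51 kept direction and lost the call and 1 reversed. Of 2563 values of uncalled results, 2471 stayed uncalled, whatever their sign, 87 passed the threshold in the same direction and 5 in the opposite one. The causes of these changes were not tested, and fits with fewer libraries also changed the genes that passed the filter. Counts of the 10 genes called are given next, with the percent of all genes called.

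For tamoxifen MG_TRAP against Input the count of 0 (6.82% of genes) became 1 with no filter (8.16%), DESeq2 (11.1%), limma voom (12.5%), the compared groups only (23.3%) and, added after seeing the data, without the PeMP_TRAP libraries (21.2%), and 2 in the second set's compared groups (24.1%). For SN_input against Input the count of 0 (2.55%) became 4 with the compared groups only (19%), and in the added fits 3 without PeMP_TRAP (13.3%) and 6 in the second set's compared groups (48%). For PeMP_TRAP against SN_input the count of 4 (32.3%) became 8 with limma voom (50.9%), 2 with the compared groups only (19.4%) and 0 in the first set alone (2.87%). Against MG_TRAP the count of 4 (25.2%) became 7 with DESeq2 (32.7%), 9 with limma voom (46.1%), 1 with the compared groups only (10.5%), 0 in the first set alone (0%), 7 in the second set alone (42.6%) and 2 in its compared groups (14.7%). For the difference of the 2 enrichments the count of 1 (11.3%) became 3 with DESeq2 (14.4%), 0 in the first set alone (0%), 6 in the second set alone (29.5%) and 0 with a replicate block (5.4%). Fos reversed there to -9.26 in the second set alone.

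In control mice 1 gene was called by DESeq2 in PeMP_TRAP against SN_input (8.63%) and 1 by limma voom against MG_TRAP (3.8%). For tamoxifen against control, MG_TRAP went from 0 to 2 with DESeq2 (5.92%) and 5 with limma voom (8.1%), PeMP_TRAP from 2 (11.1%) to 0 with the compared groups only (0.353%), and enrichment with DESeq2 from 0 to 1 for MG_TRAP (1.37%) and from 0 to 2 for PeMP_TRAP (12.4%). For the set difference in MG_TRAP against Input DESeq2 and limma voom each called Dusp1 as the 1 member (1.76% and 1.03%), and in PeMP_TRAP against SN_input limma voom called 7 (41.9%). Egr1 reversed in the set differences of PeMP_TRAP, to -8.14 against SN_input and -7.71 against MG_TRAP with limma voom, and to -11.77 and -11.46 without replicate K; over all leave-outs the highest values were 0.62 and 1.04 (without replicate H). Dusp1 reversed to 0.46 against MG_TRAP in the first set alone.

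Leaving out each replicate gave counts from 2 to 5 for PeMP_TRAP against SN_input (27.8% to 36.1% of all genes), 2 to 6 against MG_TRAP (19.6% to 30.9%), 1 to 2 for the difference of enrichments (6.63% to 16.1%) and 1 to 3 for tamoxifen against control in PeMP_TRAP (2.28% without F to 8.67%). For the set differences it gave 3 to 4 against SN_input (7.96% without F to 18%) and 3 to 6 against MG_TRAP (7.6% without E to 18.6%). It gave 0 for the other results that count called members (0% to 7.19% of all genes). Same-letter libraries of 2 fractions had correlations of -0.04 to 0.23 in their deviations from group means, not all above 0.1, so letters were not taken as pairs. Between Input and MG_TRAP of tamoxifen mice most libraries were nonetheless closest to that of their own letter. Between SN_input and PeMP_TRAP most were not. Whether letters are pairs is thus not settled, and the main fits leave a possible pairing out. With a replicate block Egr2 lost its calls in the tamoxifen PeMP_TRAP contrasts (edgeR adjusted p = 0.0901 against SN_input, 0.063 against MG_TRAP), and Jun gained both (0.0398 and 0.0285). In those fits Jun lost its set difference against SN_input (0.0907), and Fosb lost its difference of enrichments (0.0688). Other scalings moved the median of all genes by -0.70 to 0.65 (RLE) and -1.05 to 0.70 (total counts), and the 19 signs that flipped were of genes not called.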
